A study of Mus musculus with 16 samples.

Results

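The 4 genes *Gjb2*, *Gjb5*, *Gjb6* and *Gja1*, which encode connexins found in mouse epidermis, were followed through the response of dorsal skin to ultraviolet B (UVB). They were chosen by gene symbol, as 4 of the 55359 genes listed for each mouse, and all 4 passed the filter on low counts. The choice was made with earlier results of these data known, so counts of called genes beside the shares of all genes are a description. The skin came from wild type C57Bl/6N mice aged 8 weeks whose hair cycle was at rest (telogen). UVB females and UVB males had been irradiated 3 times, and dorsal skin was collected on day 5, when 6 h had passed since the last exposure, while no-UVB females and no-UVB males served as controls. Each group had 4 samples, numbered as replicates in the labels and treated here as 1 mouse each. Nothing in the labels says whether they came from separate litters or days, so p-values measure the spread between these samples.

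Connexins are membrane proteins that assemble into hexameric channels, and channels of neighbouring cells dock to form gap junctions, through which ions and small metabolites pass from cell to cell. Keratinocytes make several of them, and a junction's permeability depends on which connexins it is built from. *Gja1* encodes Cx43, the most widely expressed connexin of skin, which is also made by fibroblasts and vessel cells. *Gjb2* (Cx26) and *Gjb6* (Cx30) are known for being scarce in resting epidermis between follicles and abundant in hyperproliferative or wounded epidermis, and for their role in the inner ear. *Gjb5* encodes mouse Cx31.1, a connexin of the differentiating epidermis.

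The 4 genes lie at 3 places of the mouse genome (GRCm39, GENCODE M39). *Gjb2* (ENSMUSG00000046352.8, chr14:57335919-57342240, minus strand) and *Gjb6* (ENSMUSG00000040055.10, chr14:57360757-57371087, minus strand) are neighbours, 18.5 kb apart. *Gjb5* (ENSMUSG00000042357.3, chr4:127248602-127252001, minus strand) lies on another chromosome, where *Gja4* is 40.8 kb away. *Gja1* (ENSMUSG00000050953.11, chr10:56253241-56278609, plus strand) has no connexin gene among its nearest neighbours. *Gjb6* and *Gja1* each overlap a long noncoding RNA gene of the opposite strand, and the directional libraries kept the strands apart.

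The promoters are shown because *Gjb2* and *Gjb6*, which are neighbours and both rose after UVB, can be set beside the genes that rose less or showed no change past the threshold. Each sequence runs from 250 bases before to 50 bases after a transcription start of RefSeq (GRCm38.p6), 5′ to 3′ on the gene's strand, and each had 1 exact match in GRCm39. Capitals mark matches, on either strand, to the AP-1 motif TGANTCA, the GC box GGGCGG, the TATA box TATAAA or the E-box CACGTG.
*Gjb2*, chr14:57342110-57342409, minus strand: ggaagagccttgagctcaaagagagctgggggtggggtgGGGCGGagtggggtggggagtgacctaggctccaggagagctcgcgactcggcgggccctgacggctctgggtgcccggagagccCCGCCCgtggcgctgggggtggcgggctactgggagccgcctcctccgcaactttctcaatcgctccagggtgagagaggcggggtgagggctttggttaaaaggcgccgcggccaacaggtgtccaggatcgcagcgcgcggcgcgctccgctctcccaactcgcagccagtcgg
*Gjb6*, chr14:57371019-57371318, minus strand: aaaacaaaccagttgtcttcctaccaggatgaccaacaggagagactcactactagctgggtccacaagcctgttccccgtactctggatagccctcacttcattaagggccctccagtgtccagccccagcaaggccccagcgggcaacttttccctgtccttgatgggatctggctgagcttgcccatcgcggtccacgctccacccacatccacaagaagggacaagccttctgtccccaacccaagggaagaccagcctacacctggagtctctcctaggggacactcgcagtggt
*Gjb5*, chr4:127251908-127252207, minus strand: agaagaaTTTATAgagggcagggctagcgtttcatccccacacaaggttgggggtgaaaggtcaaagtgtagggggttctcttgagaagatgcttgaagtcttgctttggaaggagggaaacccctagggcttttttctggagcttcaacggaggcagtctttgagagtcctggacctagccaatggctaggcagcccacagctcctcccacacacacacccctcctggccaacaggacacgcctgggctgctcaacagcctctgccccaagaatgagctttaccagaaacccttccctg
*Gja1*, chr10:56253146-56253445, plus strand: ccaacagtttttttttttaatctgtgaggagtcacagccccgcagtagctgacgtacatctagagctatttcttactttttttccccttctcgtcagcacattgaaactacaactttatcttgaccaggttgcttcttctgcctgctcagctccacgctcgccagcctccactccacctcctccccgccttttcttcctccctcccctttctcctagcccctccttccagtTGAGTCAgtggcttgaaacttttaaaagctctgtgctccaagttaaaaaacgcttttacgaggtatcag

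The windows of *Gjb2* and *Gjb6* shared no motif of the 4 searched. That of *Gjb2* held 2 GC boxes, at bases 40 to 45 and, on the opposite strand, 125 to 130, and its GC content was 70%, against a median of 52.7% over 32851 promoter windows of the same length. That of *Gjb6* held no match and had 57.3% GC. The window of *Gjb5* (54.3% GC) held a TATA box sequence on the opposite strand at bases 8 to 13, far from the start, and the window of *Gja1* (47.7% GC) held an AP-1 sequence at bases 232 to 238, beginning 19 bases before the start. Of all windows, 35.7% held a GC box, 13.6% a TATA box, 7.8% an AP-1 motif and 7.2% an E-box. Such matches are thus not particular to these genes and are given as a description.

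In UVB skin *Gjb2* and *Gjb6* rose in both sexes, and the rise was larger in males. *Gja1*, already deeply counted without UVB, rose by much less, and *Gjb5* did not pass the test in either sex. Values are counts relative to library size (CPM, scaled by TMM). A gene was called where the p of edgeR's quasi-likelihood test, adjusted over all genes after Benjamini and Hochberg, was under 0.1. In females 3 of the 4 genes rose, where 12.8% of all genes tested did, and in males the same 3 rose, where 29% of all genes did. Past a log2 fold change of 1, 2 of the 4 rose in each sex, against 1.63% of all genes in females and 4.08% in males.

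**Figure D1:**
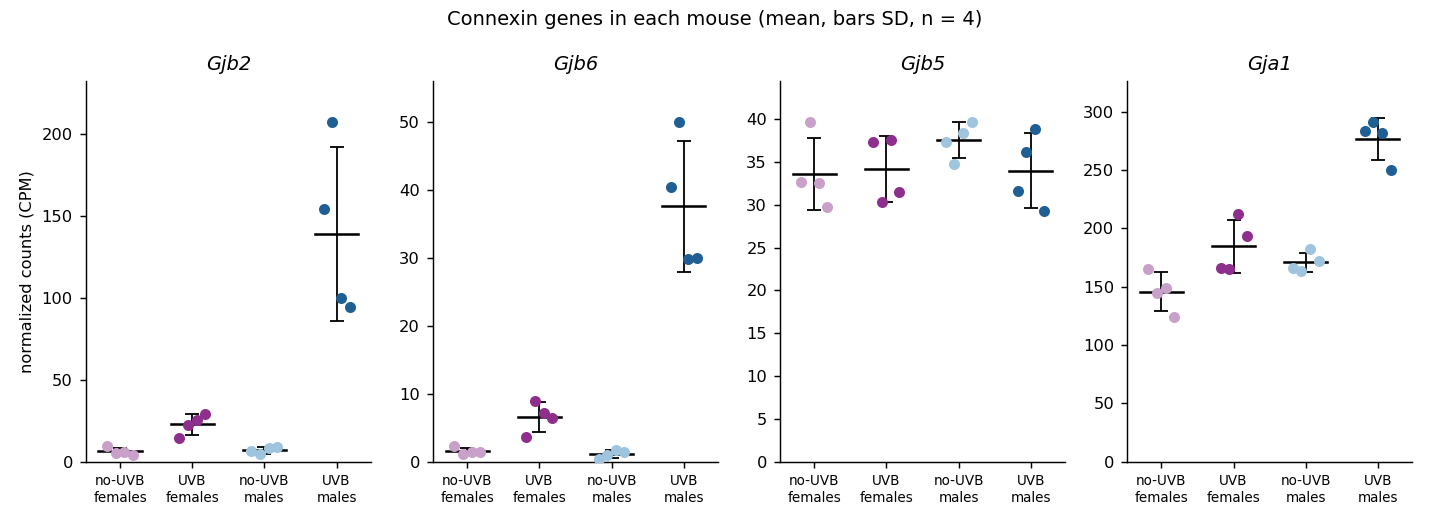
Normalized counts (CPM, vertical axes from 0, 1 scale per gene) of the 4 connexin genes in each mouse, by group. Points are mice, lines are means and bars are SD (n = 4). The UVB males stand above all other mice for *Gjb2* (94.5 to 208 CPM), *Gjb6* (29.9 to 50.1 CPM) and *Gja1* (250 to 291 CPM), and the groups overlap for *Gjb5*.

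*Gjb2* was low in every mouse without UVB. The 4 no-UVB females had 9.40, 5.63, 5.89 and 4.34 CPM, and the 4 no-UVB males had 6.29, 4.56, 8.49 and 9.23 CPM. After UVB the females had 14.3, 22.4, 25.7 and 29.3 CPM and the males had 154, 208, 100 and 94.5 CPM. No irradiated mouse overlapped the controls of its sex, and the lowest UVB male lay above the highest UVB female. The log2 fold change was 1.86 (SE 0.262, adjusted p = 0.00180 by edgeR) in females, a 3.64-fold rise, and 4.31 (SE 0.356, adjusted p = 5.90e-05 by edgeR) in males.

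*Gjb6*, the neighbour of *Gjb2*, also rose with UVB in both sexes, in fewer reads. It had 2.30, 1.15, 1.38 and 1.47 CPM in no-UVB females and 0.373, 1.06, 1.73 and 1.43 CPM in no-UVB males. After UVB it had 3.6, 8.91, 7.16 and 6.42 CPM in females and 40.5, 50.1, 29.9 and 30.0 CPM in males. Again no irradiated mouse overlapped the controls of its sex, and the UVB males stood clear of the UVB females. The counts behind the control values were few, 8 to 40 reads in no-UVB males and 29 to 53 in no-UVB females. The log2 fold change was 2.07 (SE 0.296, adjusted p = 0.00170 by edgeR) in females and 5.05 (SE 0.326, adjusted p = 6.16e-06 by edgeR) in males.

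*Gjb5* had group means between 33.6 and 37.5 CPM. It had 32.6, 39.6, 32.5 and 29.7 CPM in no-UVB females and 37.4, 30.3, 37.6 and 31.4 CPM in UVB females. In males it had 37.3, 34.8, 38.4 and 39.7 CPM without UVB and 31.6, 36.2, 38.9 and 29.3 CPM after UVB. The UVB and no-UVB mice overlapped in both sexes. The log2 fold change was 0.03 in females (95% confidence interval -0.21 to 0.26, adjusted p = 0.884 by edgeR) and -0.12 in males (-0.32 to 0.08, adjusted p = 0.279). A change within these limits is not excluded. The male value passed the threshold when male UVB replicate 3 was left out (-0.19, adjusted p = 0.0886) or with upper quartile scaling (-0.20, adjusted p = 0.0776).

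*Gja1* was counted with 2457 to 9096 reads per mouse. It had 165, 145, 149 and 124 CPM in no-UVB females and 166, 166, 212 and 194 CPM in UVB females. In males it had 166, 164, 182 and 172 CPM without UVB and 283, 291, 282 and 250 CPM after UVB. The male groups lay well apart, whereas the female groups met, the highest no-UVB female being just under the lowest UVB female. The log2 fold change was 0.35 (SE 0.109, adjusted p = 0.0566 by edgeR) in females and 0.72 (SE 0.0670, adjusted p = 9.78e-06 by edgeR) in males. The female call was lost in 4 of the 8 fits that left out 1 mouse, namely without UVB replicate 3 (adjusted p = 0.142) or 4 (0.124) or no-UVB replicate 2 (0.115) or 4 (0.137). Groups did not overlap for *Gjb2*, *Gjb6* and *Gja1* in either sex, as for 11.1% of all genes with UVB higher in females and 22.9% in males. Skin holds many cell types, and in such bulk samples more cells of a type and more RNA per cell cannot be told apart.

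The response of *Gjb2* and *Gjb6* to UVB differed between the sexes. The response in males exceeded that in females by 2.43 (SE 0.448, adjusted p = 0.0168 by edgeR over all 16 mice) on the log2 scale for *Gjb2* and by 2.95 (SE 0.498, adjusted p = 0.0122) for *Gjb6*. These were 2 of the 4 genes, where 2.75% of all genes had a higher response in males. For *Gja1* the difference was 0.36 (SE 0.131, adjusted p = 0.137), which passed the threshold without female UVB replicate 3 (0.45, adjusted p = 0.0611), without female no-UVB replicate 4 (0.44, adjusted p = 0.0574) and with DESeq2's Wald test (0.39, adjusted p = 0.0590). *Gjb5* had a difference of -0.17 (adjusted p = 0.550).

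Without UVB, the log2 difference between males and females was 0.17 for *Gjb2* (95% confidence interval -0.56 to 0.90, adjusted p = 0.839 by edgeR), with wide limits. It was -0.44 for *Gjb6* (-1.33 to 0.45, adjusted p = 0.595), 0.16 for *Gjb5* (-0.06 to 0.37, adjusted p = 0.407) and 0.23 for *Gja1* (0.03 to 0.42, adjusted p = 0.150). None of the 4 genes was called by edgeR or by DESeq2, where 11.8% of all genes were called in either direction, and 1 of them, *Gja1*, was at an unadjusted p under 0.05. *Gja1* passed the threshold when female no-UVB replicate 1 was left out (0.29, adjusted p = 0.0822). After UVB, 3 of the 4 genes were higher in males, where 12.8% of all genes were. The log2 difference was 2.60 for *Gjb2* (SE 0.299, adjusted p = 0.000151 by edgeR), 2.51 for *Gjb6* (SE 0.280, adjusted p = 9.31e-05) and 0.58 for *Gja1* (SE 0.0926, adjusted p = 0.000920). For *Gjb5* it was -0.01 (-0.23 to 0.21, adjusted p = 0.967).

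Ratios between connexin genes of the same mouse do not depend on how libraries are scaled. The count ratio of *Gjb2* to *Gja1* rose 2.85-fold with UVB in females and 11.7-fold in males, and that of *Gjb6* to *Gja1* rose 3.09-fold and 20.7-fold. The UVB and no-UVB mice did not overlap in any of these 4 comparisons, each with p = 0.0286 by an exact two-sided permutation test, the smallest that 4 against 4 mice can give, and an adjusted p of 0.0457 over the 8 ratio tests. The ratio of *Gjb5* to *Gja1* fell by 0.84 on the log2 scale in males (exact permutation p = 0.0286, adjusted p = 0.0457). In females it was 0.31 lower on that scale (a difference of -0.31, exact permutation p = 0.0857, adjusted p = 0.0980), with overlapping mice, and that call held in 1 of the 8 fits that left out 1 mouse, the one without UVB replicate 1 (adjusted p = 0.0653). The ratio of *Gjb6* to *Gjb2* differed by 0.12 in females (exact permutation p = 0.543) and by 0.82 in males (exact permutation p = 0.0571, adjusted p = 0.0762). The male mice overlapped in it, and the male call was lost in 6 of the 8 fits that left out 1 mouse, those without replicate 1, 3 or 4 of either group (adjusted p = 0.131 in each). Its size was 0.45 without no-UVB replicate 1. A fit without 1 mouse allows fewer possible p-values in the permutation test. A call can be lost there through the smaller number of mice alone.

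**Figure D2:**
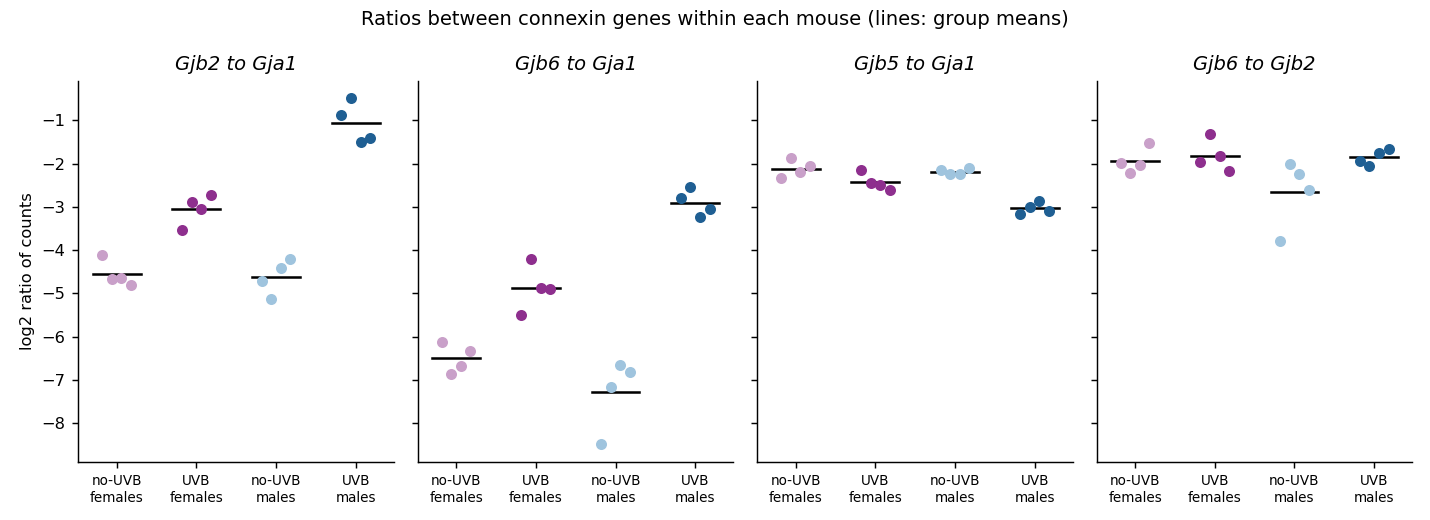
Log2 ratio of counts between pairs of connexin genes in each mouse (vertical axis, shared by the 4 panels), by group. Points are mice and lines are group means. The ratios of *Gjb2* and *Gjb6* to *Gja1* are higher in every UVB mouse than in the controls of its sex and highest in UVB males, whereas the ratio of *Gjb5* to *Gja1* is lowest in UVB males.

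Levels of different genes were compared as CPM per kilobase of exon. Without UVB the order was *Gjb5*, *Gja1*, *Gjb2* and *Gjb6* in both sexes. In no-UVB males these levels were 21.5 ± 1.2 for *Gjb5*, 13.9 ± 0.670 for *Gja1*, 1.92 ± 0.573 for *Gjb2* and 0.293 ± 0.150 for *Gjb6* (SD, n = 4), and no 2 neighbours in that order overlapped. In UVB males *Gjb2* came first with 37.5 ± 14.3, before *Gja1* with 22.5 ± 1.49, *Gjb5* with 19.4 ± 2.48 and *Gjb6* with 9.60 ± 2.47. There *Gja1* (20.3 to 23.7) and *Gjb5* (16.7 to 22.2) overlapped. In UVB females the order was that of the controls, with *Gjb2* at 6.16 ± 1.72 and *Gjb6* at 1.66 ± 0.563.

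The order at the top depends on the length given to *Gja1*, whose merged exons cover 12302 bases against 4700 in its canonical transcript. With canonical lengths *Gja1* came first of the 4 genes in every group, at 36.4 ± 1.75 in no-UVB males and 58.8 ± 3.90 in UVB males, where *Gjb2* stood at 54.6 ± 20.8 and overlapped it. As a share of all connexin counts per kilobase, *Gjb2* made up 2.34% ± 0.547 in no-UVB males and 22.8% ± 6.06 in UVB males, and *Gjb6* made up 0.357% ± 0.169 and 5.92% ± 0.853. In females the share of *Gjb2* was 2.23% ± 0.661 without and 5.95% ± 1.45 with UVB. The share of *Gjb5* was 26.5% ± 0.736 in no-UVB males and 12.2% ± 1.79 in UVB males, although its own level did not pass the test. With canonical lengths *Gjb2* had 2.07% and 20.2% in males, and *Gjb5* had 16.1% and 7.41%.

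**Figure D3:**
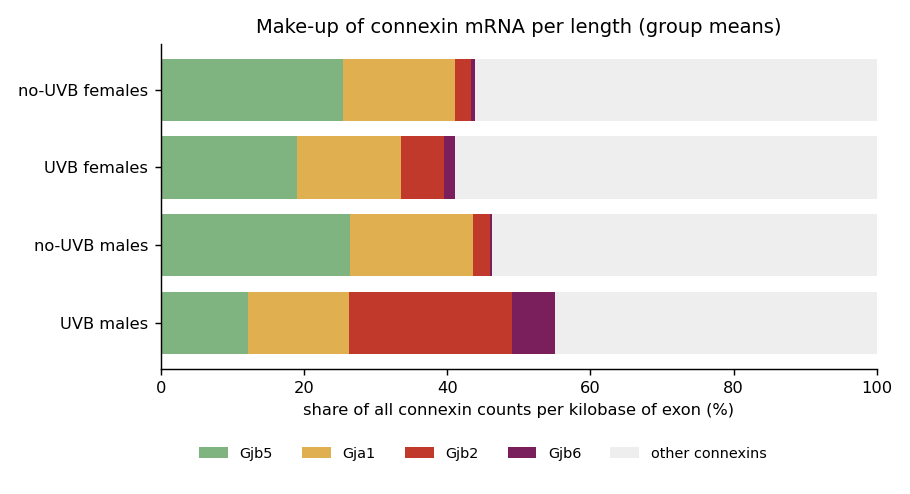
Share of all connexin counts per kilobase of exon (horizontal axis, %) taken by the 4 connexin genes and by all others, as group means (n = 4). *Gjb2* and *Gjb6* take 22.8% and 5.92% in UVB males, against 5.95% and 1.62% in UVB females.

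Of the 16 connexin genes reported here, 10 had enough counts to be tested, and the other 6, *Gja3*, *Gja6*, *Gja10*, *Gjd2*, *Gjd4* and *Gje1*, did not pass the filter. In females *Gja1*, *Gjb2* and *Gjb6* rose, and in males these rose with *Gjb1* and *Gja4*, while 1 fell. Over all genes, 12.8% rose in females, and 29% rose and 30.5% fell in males. The median log2 fold change of the 10 was 0.33 in females and 0.44 in males, against 0.00 and -0.02 over all genes.

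*Gjb1* (Cx32), known best from liver and myelinating Schwann cells, was near the limit of detection. Its counts were 11 to 24 in no-UVB males and 25 to 82 in UVB males, and it went from 0.760 ± 0.276 to 2.21 ± 0.651 CPM (log2 fold change 1.56, adjusted p = 0.00124 by edgeR). In females the log2 fold change was 0.32 (adjusted p = 0.417). The difference between these responses was 1.23 (adjusted p = 0.104 by edgeR), which passed the threshold in 5 of the 7 other settings and without male UVB replicate 3 (1.41, adjusted p = 0.0627) or male no-UVB replicate 2 (1.48, adjusted p = 0.0939). *Gjc3*, a connexin of myelinating glia, fell in males (log2 fold change -0.46, adjusted p = 0.00954 by edgeR).

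*Gjc3* had 5.59, 6.31, 5.5 and 6.08 CPM in no-UVB males and 4.14, 3.96, 3.75 and 5.01 CPM in UVB males, and these mice did not overlap. In females its log2 fold change was 0.13 (adjusted p = 0.457 by edgeR), and the male response lay below the female one by -0.60 (adjusted p = 0.0464), a call lost without male UVB replicate 1 (adjusted p = 0.102) or male no-UVB replicate 2 (adjusted p = 0.107) and with every gene of at least 1 count tested (adjusted p = 0.112). *Gja4* (Cx37), a connexin of endothelium, had a log2 fold change of 0.25 in each sex, called in males (adjusted p = 0.0863 by edgeR) and not in females (0.138). The male call was lost without male UVB replicate 2 (0.15, adjusted p = 0.235), without no-UVB replicate 1 (adjusted p = 0.183), 2 (0.135) or 4 (0.107) and in 4 other settings, and the female response passed without no-UVB replicate 4 (0.32, adjusted p = 0.0821). *Gja5* and *Gjc1*, of vessels, and *Gjd3* were not called in either sex, though *Gjd3* passed in males without UVB replicate 4 (0.82, adjusted p = 0.0790) or no-UVB replicate 4 (0.88, adjusted p = 0.0854).

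**Figure D4:**
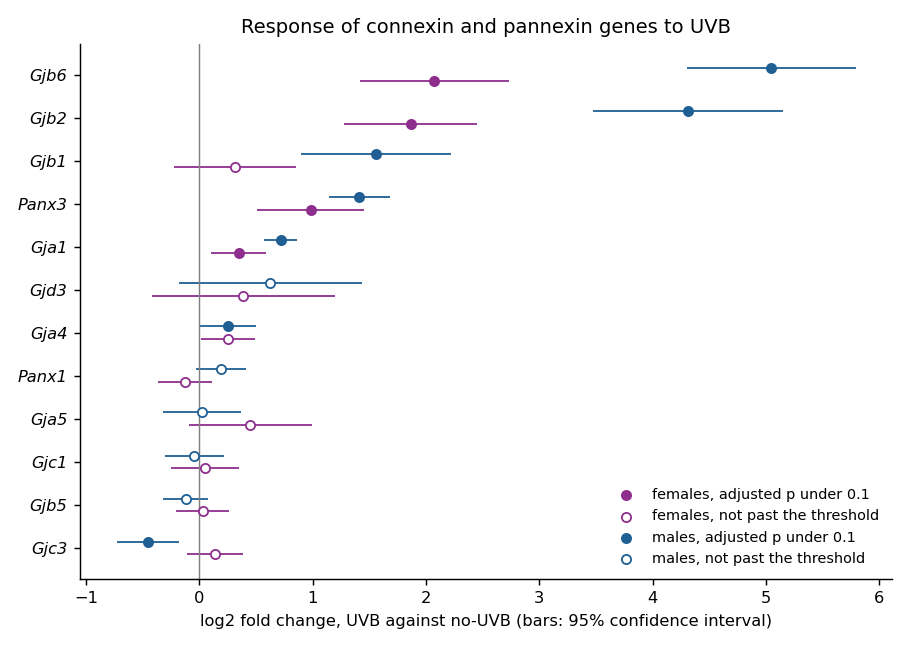
Log2 fold change between UVB and no-UVB mice (horizontal axis) of the 10 connexin and 2 pannexin genes tested and reported, by sex. Bars are 95% confidence intervals, and filled points passed an adjusted p under 0.1. *Gjb6* and *Gjb2* lie at 5.05 and 4.31 in males, far from the next connexin, *Gjb1*, at 1.56.

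Pannexins form channels of similar topology that do not usually dock between cells. *Panx3* rose in both sexes, from 18.5 ± 5.29 to 36.6 ± 7.35 CPM in females (log2 fold change 0.98, adjusted p = 0.0138 by edgeR) and from 17.8 ± 3.04 to 46.5 ± 4.84 CPM in males (1.41, adjusted p = 7.41e-06). *Panx1* was not called in either sex, at -0.13 (adjusted p = 0.467) and 0.19 (adjusted p = 0.131), though its male response passed without no-UVB replicate 1 (0.28, adjusted p = 0.0292) or UVB replicate 3 (0.23, adjusted p = 0.0998). The difference between the sexes in connexin response covered 2 higher and 1 lower of the 10, against 2.75% and 4.25% of all genes. After UVB 4 of these connexins were higher and 1 lower in males, against 12.8% and 12.5% of all genes. Without UVB 0 of the 10 differed by edgeR or DESeq2, and 2, *Gja1* and *Gja5*, were at an unadjusted p under 0.05. *Gja5* (log2 difference 0.55, adjusted p = 0.136 by edgeR) was called with the replicate number as a block (0.55, adjusted p = 0.0587) and without female UVB replicate 2 (0.55, adjusted p = 0.0997), female no-UVB replicate 4 (0.67, adjusted p = 0.0812) or male no-UVB replicate 3 (0.67, adjusted p = 0.0782).

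The genes nearest in pattern were found by the root mean square difference of log2 CPM, each gene centred on its mean over the 16 mice, among 12316 genes with a mean of at least 5 CPM. For *Gjb6* no gene was nearer than *Gjb2* (0.534), and for *Gjb2* only 2 genes outside the 4 were nearer than *Gjb6*. The 3 nearest to *Gjb2* were *S100a9* (0.468), which encodes a calcium-binding protein of neutrophils and stressed keratinocytes, *Slpi* (0.514), a secreted protease inhibitor, and *Krt6a* (0.555), a keratin of wounded epidermis. Those nearest to *Gjb6* were *S100a9* (0.587), *Sprr2d* (0.645), a cornified envelope gene, and *Il36b* (0.693), an epidermal cytokine. As these genes were chosen for this pattern over the same mice, their male log2 fold changes, 3.63 (*Krt6a*) to 5.71 (*Sprr2d*), are a description, and *Slpi*, *S100a9* and *Sprr2d* reached the mean of 5 CPM through the UVB males.

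*Gja1* lay nearest to *Ell2* (0.102), an elongation factor gene, *Prep* (0.108), a peptidase gene, and *Rangap1* (0.112), of nuclear transport. *Ell2* had 41.4 ± 2.19 CPM in no-UVB and 56.6 ± 5.76 CPM in UVB females, and 45.7 ± 2.99 and 78.0 ± 6.16 CPM in the males. *Gjb5*, which varied little, lay nearest to *Rab3d* (0.083), *Rell1* (0.089) and *Fam76a* (0.090). The group means of *Rab3d* stayed between 142 and 160 CPM. These likenesses describe the shape over 16 mice that share 4 groups.

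**Figure D5:**
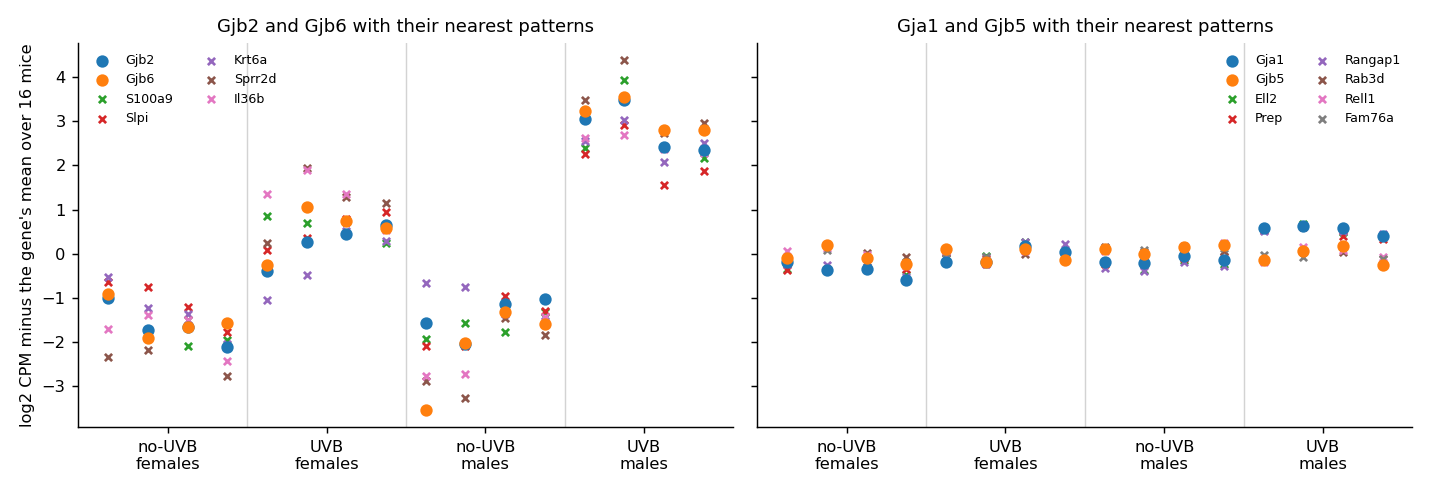
Log2 CPM of each gene minus its mean over the 16 mice (vertical axis), by mouse within each group. Circles are connexin genes and crosses their nearest genes in pattern. *Gjb2* and *Gjb6* spread over several log2 units with UVB males on top, and *Gja1* and *Gjb5* stay close to 0.

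Other genes of junctions and of the epidermis were counted from lists. Of 13 partner and turnover genes of connexins, 5 rose and 5 fell in males, where 29% and 30.5% of all genes did, and 1 rose and 1 fell in females, against 12.8% and 10.6%. The list thus lay close to all genes in both sexes. *Tjp1*, which encodes the ZO-1 scaffold that binds the tail of Cx43, changed by 0.36 on the log2 scale in males (adjusted p = 0.000296 by edgeR), whereas *Cav1*, of caveolae, fell by 0.44 (adjusted p = 0.0130) and *Nedd4*, a ubiquitin ligase for Cx43, fell by 0.31 (adjusted p = 0.00204). Of 9 adherens junction genes 6 rose and 1 fell in males, with *Cdh1*, E-cadherin, at 0.54 (adjusted p = 0.000232). Of 10 tight junction genes tested 4 rose and 3 fell in males, near the shares of all genes, with *Cldn4* at 0.61 (adjusted p = 6.32e-05) and *F11r* at 0.49 (adjusted p = 2.79e-05). In females 1 adherens junction gene, *Vcl*, and 1 tight junction gene, *Cldn8*, fell, where 10.6% of all genes did.

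Markers of several cell types also changed with UVB, some upward and some downward, and their part in the connexin changes was not tested. For comparison, of all genes 12.8% rose and 10.6% fell in females, and 29% rose and 30.5% fell in males. Of 8 suprabasal keratinocyte markers 6 rose in females, and in males 7 rose and 1 fell. Their summed level was 9780 to 14108 CPM in no-UVB females and 16097 to 20237 CPM in UVB females, and 10560 to 14859 CPM in no-UVB males and 24058 to 29747 CPM in UVB males. *Krt10*, a keratin of suprabasal cells, had a log2 fold change of 0.62 in females (adjusted p = 0.0337 by edgeR) and 1.24 in males (adjusted p = 3.92e-05). All 12 cell cycle genes rose in each sex, with *Mki67* at 0.47 in females (adjusted p = 0.0203) and 1.08 in males (adjusted p = 0.00347).

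The stress keratins, of wounded and hyperproliferative epidermis, rose in 3 of 4 cases in females and in all 4 in males, and 3 of the 4 responded more in males, where of all genes 12.8% and 29% rose and 2.75% responded more in males. *Krt6a* is also among the genes picked for likeness to *Gjb2*. The female call of *Krt6a* (log2 fold change 1.14, adjusted p = 0.0688 by edgeR) was lost with every gene of at least 1 count tested (adjusted p = 0.271), without UVB replicate 2 (0.108), 3 (0.195) or 4 (0.162) and without no-UVB replicate 2 (0.135), 3 (0.128) or 4 (0.167). Its sequence is close to that of *Krt6b*, so that reads fitting both genes may be missing from the counts. *Krt16* had log2 fold changes of 2.97 in females (adjusted p = 0.00103 by edgeR) and 6.11 in males (adjusted p = 1.54e-06), with a difference of 3.12 (adjusted p = 0.00976). Of 7 basal keratinocyte markers 3 rose and 1, *Krt15*, fell in males (-1.25, adjusted p = 2.56e-05). Summed basal markers were 6367 to 9120 CPM in no-UVB males and 8649 to 12049 CPM in UVB males, so that these groups overlapped.

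Of 7 fibroblast markers 6 fell in males, where 30.5% of all genes fell and 29% rose, and their summed level was 79166 to 86362 CPM in no-UVB males and 28448 to 39370 CPM in UVB males. *Col1a1*, a collagen gene, fell by 1.66 (adjusted p = 8.37e-06 by edgeR). In females the sums were 19323 to 20615 CPM without and 12209 to 21937 CPM with UVB. Males stood above females in 4 of the 7 markers without UVB, where 11.8% of all genes differed in either direction. After UVB 3 of the 7 were higher in males, where 12.8% of all genes were. Of 6 neutrophil markers 4 rose in males, *S100a8*, *S100a9*, *Cxcr2* and *Csf3r*, and 2 in females, *S100a9* and *Cxcr2*. *Mmp9*, a matrix protease gene, fell in both sexes, to 8.28 ± 0.765 CPM in UVB males from 24.9 ± 4.13 CPM in their controls, and to 11.9 ± 1.91 CPM in UVB females from 24.8 ± 4.54 CPM. Summed neutrophil markers were 35.3 to 38.9 CPM in no-UVB males and 60.4 to 167 CPM in UVB males, and 32.5 to 45.9 and 33.3 to 38.0 CPM in females. That list holds *S100a9*, which keratinocytes also express and which was also picked for likeness to *Gjb2* and *Gjb6*. Of 6 T cell markers all fell in males and 3 in females, and their summed level was 198 to 231 CPM in no-UVB males and 165 to 175 CPM in UVB males. Of 7 skeletal muscle markers 6 fell in males (median log2 fold change -0.58, and 0.14 in females), and of 6 adipocyte markers 3 did (-0.47, and 0.21 in females). Summed muscle markers were 18951 to 23796 CPM in no-UVB males and 13747 to 16907 CPM in UVB males, and summed adipocyte markers were 881 to 1343 and 711 to 1063 CPM. All 5 sebocyte markers rose in males and 4 rose in females, with sums of 3973 to 5960 CPM in no-UVB males and 5743 to 8471 CPM in UVB males. In males 1 of 6 smooth muscle and pericyte markers rose and 3 fell, 2 of 6 macrophage and monocyte markers rose and 2 fell, and 3 of 5 melanocyte markers rose and 1 fell. The smooth muscle and macrophage counts are near the shares of all genes. The 7 endothelial markers had a male median of -0.0024 and a female median of 0.16 for the log2 fold change, and summed to 439 to 515 CPM in no-UVB males and 445 to 537 CPM in UVB males. No marker of these lists was at 0 in every mouse of a group.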

How the data were processed

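RNA of dorsal skin from 16 mice was sequenced from polyadenylated, strand-specific libraries. The deposited values are whole-number gene counts that the authors made with STAR against GRCm39 (versions not given in the sources used here), without normalization. The counts of the strand reported by the directional kit were used, as the other strand held 3.63 to 4.23% of gene reads. Reads on genes numbered 16495776 to 33404831 per mouse, and another 8.3 to 13.69% lay outside genes and were left out. Multimapping reads are listed as 0. Replicate libraries differed by more than sampling noise. Symbols and positions came from GENCODE M39 (54749 identifiers matched, 610 did not).

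Analysis used edgeR 4.0.16 in R 4.3.3 (filterByExpr, TMM, robust quasi-likelihood test), with DESeq2 1.42.0 as an alternative, and in Python 3.11.15 with pandas 2.3.3, scipy 1.17.1 and matplotlib 3.10.9. UVB and no-UVB mice were compared within each sex (8 mice a fit), and the sexes were compared over all 16 mice, without covariates. Ratios used log2 counts with a prior count of 2. No sample was left out, and the procedure was tested on simulated data.

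The members and gene lists were chosen with earlier results of these data known. The genes named are the 4 members, each connexin and pannexin that passed the filter and is reported here, up to 4 genes of each other list with the highest mean CPM, and the 3 genes nearest in pattern to each member; *Vcl*, *Cldn8* and *Cxcr2* were named after their values were seen. Some connexin genes are not reported here, and the counts over connexins leave them out. The alternatives were counts without strand, other scalings and filters, DESeq2's Wald test, the replicate number as a block, all mice in a single fit, a prior count of 0.5, other transcript lengths (the canonical transcript chosen after seeing the data) and leaving out each mouse.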

Additional observations from a re-analysis of the deposited data

Results flagged for a closer look

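*Gjb2* and *Gjb6* had a response to UVB that differed between the sexes, by 2.43 and 2.95 on the log2 scale (males minus females), as did *Gjc3* (-0.60), *Krt14* (0.95), *Krt6b* (3.86), *Krt16* (3.12), *Col1a1* (-1.25) and *S100a8* (3.47), each by edgeR's interaction test over the 16 mice. Those of *Gjb2* and *Gjb6* passed the threshold in every fit without 1 mouse and in all 7 and 6 other settings that tested them, *Gjb6* not being tested with at least 10 counts required in every mouse. That of *Krt14*, a basal keratin, passed in 5 of the 16 fits that left out 1 mouse and was lost with every gene of at least 1 count tested (adjusted p = 0.239). Genes picked for likeness to a connexin were not examined here.

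In 1 of the 48 groups of 4 mice examined, a mouse stood far from the others, and chance alone gives about 1 in 20. *Gja4* was at 11.7 CPM in male UVB replicate 2, against 8.78 to 8.92 CPM in the other UVB males.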

How the results depend on the processing

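The calls of *Gjb2* and *Gjb6* for the UVB response in each sex, for its difference between the sexes and for males against females after UVB were kept under every alternative that tested them, and *Gjb6* was not tested with at least 10 counts required in every mouse of a fit that held the males. *Gjb5* changed sign with upper quartile scaling in females (-0.0091, adjusted p = 0.965) and with DESeq2's size factors or Wald test after UVB (0.0135 and 0.0134), and passed the threshold in males with upper quartile scaling (-0.20). Leaving out 1 mouse gave -0.028 to 0.116 in females, -0.195 to -0.053 in males and -0.080 to 0.056 after UVB. *Gja1* ranged from 0.27 to 0.41 in females, from 0.29 to 0.45 for the difference of responses (0.39 with DESeq2's Wald test, past the threshold) and from 0.14 to 0.29 for males against females without UVB. The ratio of *Gjb5* to *Gja1* in females ranged from -0.41 to -0.23, and that of *Gjb6* to *Gjb2* from -0.051 to 0.256 in females and from 0.45 to 1.04 in males. Among others, *Gja4* changed sign for the difference of responses with DESeq2's size factors (0.016) or Wald test (0.0067), and ranged from -0.121 to 0.056 without 1 mouse. *Gja5* in males was -0.051 with upper quartile scaling and -0.077 to 0.173 without 1 mouse, and *Gjc1* ranged from -0.012 to 0.144 in females and from -0.104 to 0.056 in males.

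The levels per length of *Gjb2* with the canonical transcript were 2.80 in no-UVB and 54.6 in UVB males. Those of *Gjb6* were 0.478 and 15.6 with the longest and 0.540 and 17.7 with the canonical transcript, and those of *Gja1* were 29.9 and 48.4, and 36.4 and 58.8.

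Of all genes, 478 responded more in males, against 229 with every gene of at least 1 count tested and 1102 with DESeq2's Wald test. Genes higher in males after UVB numbered 2222, against 1434 with every gene of at least 1 count. Without 1 mouse, 163 to 835 genes responded more and 298 to 1020 less in males, 762 to 1388 were higher and 430 to 943 lower in males without UVB, and 1322 to 2341 were higher in males after UVB. The share of called genes that rose moved from 54.7 to 44.6% in females and from 48.7 to 38.8% in males with upper quartile scaling. For the difference of responses it moved from 39.2 to 51.7% with DESeq2's size factors and 54% with its Wald test, and to 32% with upper quartile scaling, and after UVB from 50.6 to 37.7% with upper quartile scaling. The cause was not tested.

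Same-numbered mice did not deviate together, with correlations of -0.12 to 0.22, so the numbers were not taken as pairs. With the replicate number as a block, the male call of *Gja4* was lost (0.25, adjusted p = 0.108), the female call of *Krt6a* was lost (1.13, adjusted p = 0.144), the difference of *Gjb1* passed (1.26, adjusted p = 0.0928) and *Gja5* passed for males against females without UVB (0.55, adjusted p = 0.0587). Few reads limit the control values of *Gjb6* and *Gjb1*.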
